A study of Mus musculus with 4 samples.

Results

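The genes described here encode 9 proximal components of T cell receptor signalling: the CD3 chains Cd3g, Cd3d and Cd3e, the zeta chain Cd247, the kinases Lck and Zap70, the adaptors Lat and Lcp2, and the thymocyte signalling protein Themis. They were taken by symbol, by a rule that sets no threshold on measured values though earlier results of these data were known, and all 9 were found among the 56239 genes of the count table. Messenger RNA was sequenced from double-positive (DP) thymocytes, sorted as CD4+CD8+ cells from mice on the C57BL/6 background, with 2 libraries per genotype. KO libraries came from Cd4-cre;CHAF1bfloxp/floxp mice, in which Cre recombinase under Cd4 control deletes Chaf1b, the gene of a subunit of chromatin assembly factor 1. WT libraries came from CHAF1bfloxp/floxp mice without Cre, so the floxed alleles are common to both genotypes and the Cre transgene is present in KO mice alone. Cd4-cre acts late in thymocyte development, so that deletion happens shortly before or at the DP stage, and it is not restricted to cells that go on to any one lineage. The labels state neither the age of the mice nor how many gave each library.

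The T cell receptor has no signalling domain of its own. Its alpha and beta chains bind the ligand, and the CD3 gamma, delta and epsilon chains and the zeta dimer carry the signal through tyrosine motifs in their tails. Lck, held at the CD4 and CD8 coreceptors, phosphorylates those motifs, and Zap70 docks on them and phosphorylates the membrane adaptor Lat and the cytosolic adaptor Lcp2 (SLP-76), on which the enzymes of calcium and Ras signalling assemble. Themis, abundant in DP thymocytes, is needed for positive selection, the step at which DP cells with a useful receptor survive.

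Cd3g, Cd3d and Cd3e form a cluster on chromosome 9 (GRCm38). Cd3g (ENSMUSG00000002033, 44969572 to 44980431, minus strand) and Cd3d (ENSMUSG00000032094, 44981786 to 44987339, plus strand) stand head to head with 1354 bases between them. Cd3e (ENSMUSG00000032093, 44998740 to 45009627, minus strand) lies 11400 bases beyond the 3' end of Cd3d, with no annotated gene in the gaps. The others are on chromosome 1 (Zap70, ENSMUSG00000026117, 36761798 to 36782818, and Cd247, ENSMUSG00000005763, 165788681 to 165877277, both plus strand), chromosome 4 (Lck, ENSMUSG00000000409, 129548344 to 129573641, minus), chromosome 7 (Lat, ENSMUSG00000030742, 126363824 to 126369570, minus), chromosome 10 (Themis, ENSMUSG00000049109, 28668360 to 28883818, plus) and chromosome 11 (Lcp2, ENSMUSG00000002699, 34046920 to 34092295, plus). Their spans run from 5554 bases for Cd3d to 215459 bases for Themis.

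The promoters of the 3 clustered CD3 genes and of Lat and Themis, the members with the lowest and highest KO to WT ratio, are shown from RefSeq on GRCm38.p6, from 250 bases before to 50 bases after the annotated start. Capitals mark each E box, CAGNTG on either strand, the site read by the E proteins that are abundant in DP thymocytes.
Cd3g, chr9:44980382-44980681, minus strand: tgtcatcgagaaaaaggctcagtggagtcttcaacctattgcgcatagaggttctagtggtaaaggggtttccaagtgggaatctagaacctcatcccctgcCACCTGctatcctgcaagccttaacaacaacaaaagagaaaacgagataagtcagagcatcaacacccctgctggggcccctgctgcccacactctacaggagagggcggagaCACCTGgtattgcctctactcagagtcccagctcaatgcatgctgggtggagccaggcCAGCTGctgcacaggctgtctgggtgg
Cd3d, chr9:44981536-44981835, plus strand: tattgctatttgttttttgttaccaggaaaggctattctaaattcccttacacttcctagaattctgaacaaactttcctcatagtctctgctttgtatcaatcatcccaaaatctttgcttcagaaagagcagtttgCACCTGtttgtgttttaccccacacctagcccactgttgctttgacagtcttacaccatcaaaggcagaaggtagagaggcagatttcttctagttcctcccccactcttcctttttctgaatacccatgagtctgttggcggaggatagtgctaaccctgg
Cd3e, chr9:45009562-45009861, minus strand: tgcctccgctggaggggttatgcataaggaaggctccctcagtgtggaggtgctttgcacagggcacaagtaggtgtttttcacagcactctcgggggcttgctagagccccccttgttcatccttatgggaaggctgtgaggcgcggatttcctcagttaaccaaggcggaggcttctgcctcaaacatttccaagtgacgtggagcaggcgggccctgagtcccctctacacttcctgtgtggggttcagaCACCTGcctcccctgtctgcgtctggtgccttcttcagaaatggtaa
Lat, chr7:126369519-126369818, minus strand: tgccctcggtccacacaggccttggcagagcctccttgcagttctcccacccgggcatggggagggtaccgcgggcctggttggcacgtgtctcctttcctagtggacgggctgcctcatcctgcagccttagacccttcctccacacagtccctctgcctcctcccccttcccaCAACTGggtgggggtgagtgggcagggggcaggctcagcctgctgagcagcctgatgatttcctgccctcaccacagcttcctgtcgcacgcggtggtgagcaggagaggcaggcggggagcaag
Themis, chr10:28668110-28668409, plus strand: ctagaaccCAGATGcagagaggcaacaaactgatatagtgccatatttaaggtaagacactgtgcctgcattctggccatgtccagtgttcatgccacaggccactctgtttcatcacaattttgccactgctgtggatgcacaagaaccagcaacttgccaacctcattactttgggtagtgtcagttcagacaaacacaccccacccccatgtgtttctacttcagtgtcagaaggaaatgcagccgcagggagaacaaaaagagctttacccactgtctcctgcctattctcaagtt
In the start nearest to the deposited gene's 5' end, an E box was present in 9 of the 9 promoters, against 51.4% of 32841 RefSeq mouse promoter windows of the same length. The form CAGGTG, which lies within CAGNTG and was looked at after the sequences had been read, was present in 6 of 9 promoters against 20.2% of all windows. An Ets core (AGGAAG) was present in 7 of 9 against 35.4%, and an Ikaros core (TGGGAA) in 6 of 9 against 25.6%. A Runx core (TGTGGT) and a GATA core (AGATAA) were each present in 2 of 9, against 16.8% and 11.2% of all windows. A GC box (GGGCGG) was present in 1 of 9 against 35.7%, and a TATA box (TATAAA) in 0 of 9 against 13.6%. Other annotated starts differed. The Themis start 35 bases away and the Zap70 start 2717 bases away held 0 E boxes, and the Zap70 start 17186 bases away held 1. The Lck start 15269 bases away held 1 E box and 1 GC box, but 0 Ikaros cores and 0 Runx cores. Every motif was searched on both strands, and a match describes letters in the window, not a bound site. The E box letters were present both in genes that stood higher in KO and in genes that stood lower, and a link to the differences was not tested.

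Library totals ran from 21068760 to 27369874 counts, and the members held 0.518% and 0.621% of the counts in KO replicates 1 and 2 against 0.664% and 0.644% in WT replicates 1 and 2. Each member had at least 5680 counts in every library, so the counting error was at most 1.33% of a value. Chaf1b, the check of the labels, stood at 12.2 and 14.8 CPM (counts scaled to library size and TMM factors) in KO against 27.9 and 31.7 CPM in WT. Replicate 1 of each genotype was female and replicate 2 male, by Xist (47301 and 12 counts in KO, 47368 and 8 counts in WT). Differences between same-numbered libraries are therefore also given as the female and male pair. KO replicate 1 stood apart from the other libraries: mitochondrially encoded transcripts took 3.30% of its counts and 2.03% of those of KO replicate 2, against 1.33% and 1.45% in WT. DP markers were high in every library, with Rag1 at 9405 and 6240 CPM in KO against 5899 and 5674 CPM in WT (scaled to library totals, as are the sums that follow). Summed markers of B cells, of dendritic cells and of erythroid cells stayed between 0.522 and 3.14 CPM in every library. The macrophage list summed to 7.90 and 12.6 in KO against 11.2 and 11.4 in WT, and the double-negative list to 107 and 91.3 against 92.6 and 88.7. In the NK and gamma-delta list Ncr1 and Klrd1 were at 0 throughout, and Trdc, from within the receptor alpha locus, made up nearly all of 88.8 and 91.9 in KO against 89.9 and 78.3 in WT. The stromal list, nearly all Pecam1, summed to 139 and 180 in KO against 151 and 173 in WT. The part of these cells in the results was not tested.

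None of the 9 members passed the threshold of edgeR's quasi-likelihood test (Benjamini-Hochberg adjusted p under 0.05 over 15070 tested genes), where 0.00664% of all tested genes were called. At an unadjusted p under 0.05, 1 member passed (Lat, lower in KO), against 16.8% of all tested genes in either direction and 8.69% lower. Neither DESeq2, which called 2.97% of all tested genes, nor limma-voom, which called 0.00664%, called a member. With the replicate number, which separates the sexes, added as a term, edgeR called 0 members and 3.21% of all tested genes. It called 0 members without WT replicate 1 (0.0127% of all tested genes) or WT replicate 2 (0.00634%). The KO libraries lay on one side of both WT libraries for 7 of 9 members, 3 above and 4 below, where this held for 56.3% of all tested genes (27.9% above and 28.4% below). The median log2 fold change was -0.013 over the members and -0.0026 over all tested genes. The members therefore did not shift one way as a set: Themis, Cd3g and Cd3d stood higher in KO, Lat, Cd3e and Lck lower, and Cd247, Zap70 and Lcp2 differed least. With 2 libraries per genotype, a missed threshold does not show that a gene was equal between genotypes. Chaf1b itself, the gene deleted in KO, also missed it: the log2 fold change was -1.14 (edgeR adjusted p = 0.267, or 0.0172 with the replicate term). In bulk RNA, fewer cells of a type and less RNA per cell cannot be told apart.

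**Figure D1:**
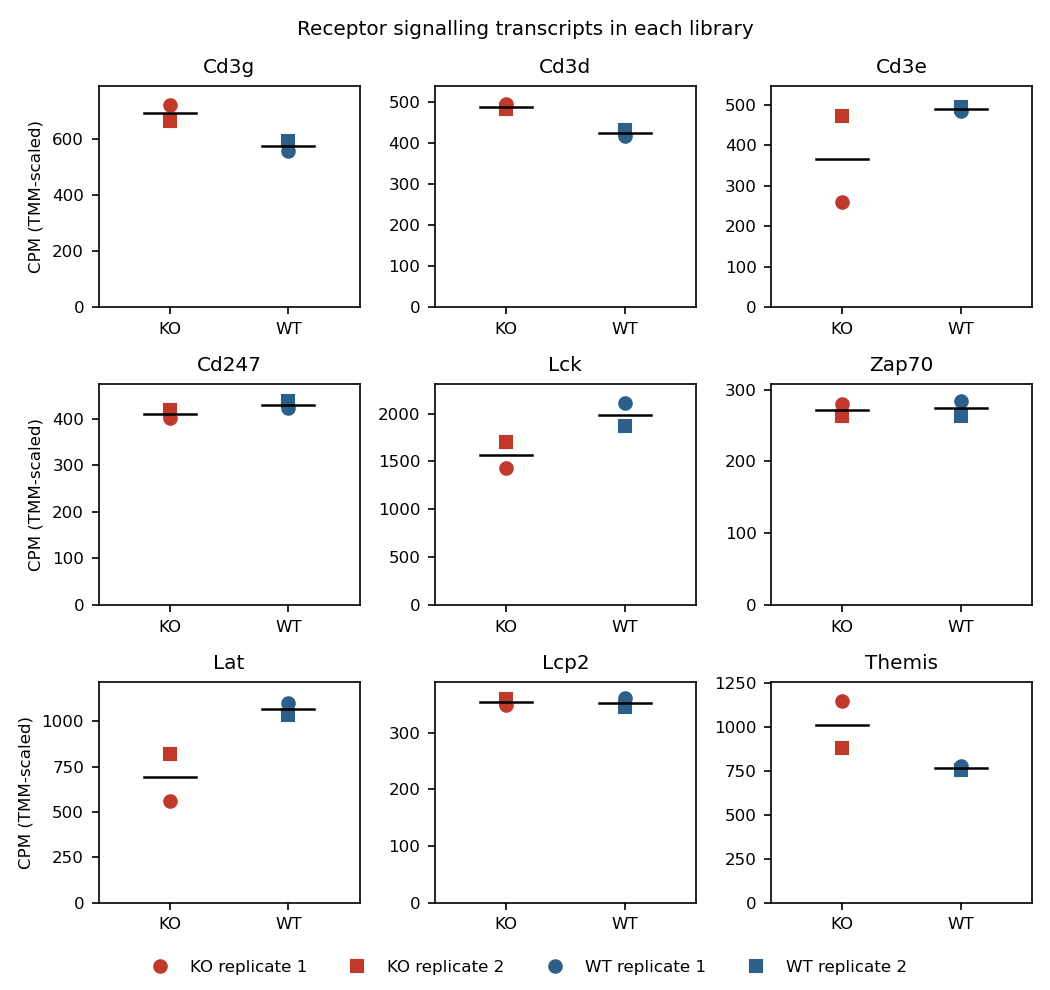
TMM-scaled CPM of each gene in the KO (left) and WT (right) libraries; circles are replicate 1, squares replicate 2, and bars the mean of 2 libraries. Lat in KO (562 and 818) lies below WT (1101 and 1037), Themis in KO (1143 and 876) lies above WT (774 and 754), and the low Cd3e mean in KO comes from replicate 1 (261 against 473).

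The receptor-associated chains did not move together. Cd3g, which encodes CD3 gamma, had 723 and 664 CPM in KO against 557 and 592 CPM in WT (693 ± 41.6 and 575 ± 25.0, SD, n = 2 each). Both KO libraries were above both WT libraries, with a log2 fold change of 0.27 ± 0.14 (SE; edgeR adjusted p = 0.351) and pair differences of 0.38 (female) and 0.16 (male). Cd3d, which encodes CD3 delta, had 494 and 481 CPM in KO against 416 and 430 CPM in WT (488 ± 8.99 and 423 ± 10.05, SD, n = 2 each). The groups again did not overlap, with a log2 fold change of 0.21 ± 0.12 (SE; edgeR adjusted p = 0.407) and pair differences of 0.25 and 0.16. Cd3d and its head-to-head neighbour Cd3g were each other's nearest member by Euclidean distance between centred log2 CPM over the 4 libraries (0.092).

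Cd3e, which encodes CD3 epsilon, the chain that pairs with both gamma and delta, had 261 and 473 CPM in KO against 486 and 495 CPM in WT (367 ± 150 and 490 ± 6.31, SD, n = 2 each). KO replicate 1 was the lowest library for Cd3e and the highest for Cd3g and Cd3d. KO replicate 2 lay just under the WT libraries, so the groups were separated by a narrow margin. The log2 fold change was -0.42 ± 0.27 (SE; edgeR adjusted p = 0.447), with pair differences of -0.90 in females and -0.065 in males. Without KO replicate 1 it was -0.047 and without KO replicate 2 it was -0.91, so 1 library decided the value. The KO replicates differed by 0.86 on the log2 scale and the WT replicates by 0.026, a KO gap reached by 11.4% of all tested genes. Of the bases of Cd3e exons 3.31% are shared with the antisense model Gm48719, and fragments there were not counted.

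Cd247, which encodes the zeta chain, the one that limits assembly of the complete receptor, had 403 and 420 CPM in KO against 423 and 438 CPM in WT (411 ± 11.995 and 430 ± 10.8, SD, n = 2 each). Both KO libraries were just below WT, by a log2 fold change of -0.066 ± 0.12 (SE; edgeR adjusted p = 0.798). It was -0.15 with library totals alone and between -0.10 and -0.032 with 1 library left out. The count is uncertain, because 60.3% of its exon bases overlap exons of Pou2f1 on the other strand or of Gm16565, and fragments over 2 genes were left out.

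Among the kinases, Lck, the Src-family kinase that starts the signal, had 1427 and 1701 CPM in KO against 2105 and 1867 CPM in WT (1564 ± 194 and 1986 ± 168, SD, n = 2 each). Both KO libraries were below both WT libraries, with a log2 fold change of -0.35 ± 0.18 (SE; edgeR adjusted p = 0.351) and pair differences of -0.56 and -0.13. Without KO replicate 1 the log2 fold change was -0.22 and without KO replicate 2 it was -0.48. Zap70, the kinase recruited to the phosphorylated tails, had 281 and 263 CPM in KO against 284 and 264 CPM in WT (272 ± 12.6 and 274 ± 14.4, SD, n = 2 each). The groups overlapped, the log2 fold change was -0.013 ± 0.12 (SE; edgeR adjusted p = 0.961), and its sign turned with an offset for transcript GC content (0.11).

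Of the adaptors, Lat, the membrane scaffold phosphorylated by Zap70, showed the largest difference of the 9 members. It had 562 and 818 CPM in KO against 1101 and 1037 CPM in WT (690 ± 181 and 1069 ± 45.8, SD, n = 2 each). Both KO libraries were under both WT libraries, replicate 1 farther than replicate 2, with pair differences of -0.97 and -0.34. The log2 fold change was -0.63 ± 0.21 (SE; edgeR adjusted p = 0.267), and DESeq2 gave an adjusted p = 0.05005, just above the threshold. Lat was called lower without KO replicate 1 (-0.38, edgeR adjusted p = 0.0251), where 2.22% of all tested genes were called lower, and without KO replicate 2 (-0.93, edgeR adjusted p = 1.44e-04), where 16.5% were. Both of these fits kept 1 KO library, which was assumed to vary like the WT pair, so their p-values hold no KO spread. The KO replicates of Lat differed by 0.54 on the log2 scale and the WT replicates by 0.087. Only the log2 fold changes of these fits are therefore read here, not their calls. With no filter on low counts Lat was the 1 member called (-0.63, edgeR adjusted p = 0.00327), where 5.63% of all tested genes were called. That fit gave the members nearly the same SE, from 0.15 (Zap70) to 0.16 (Lck), against 0.12 (Zap70) to 0.27 (Cd3e) with the filter. The spread between a gene's own replicates thus hardly entered, and the SE of Lat was 0.16 rather than 0.21. Over all alternatives its log2 fold change ran from -0.93 to -0.38. Lcp2, the adaptor that joins Lat to the exchange factor Vav1, had 349 and 360 CPM in KO against 360 and 345 CPM in WT (354 ± 7.70 and 353 ± 10.8, SD, n = 2 each). These groups overlapped, with a log2 fold change of 0.0055 ± 0.12 (SE; edgeR adjusted p = 0.984). Of the exon bases 2.71% of Lat lie over the microRNA gene Mir7058 and 6.32% of Lcp2 over an antisense model.

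Themis had 1143 and 876 CPM in KO against 774 and 754 CPM in WT (1010 ± 189 and 764 ± 14.1, SD, n = 2 each). Both KO libraries were above both WT libraries, with a log2 fold change of 0.40 ± 0.18 (SE; edgeR adjusted p = 0.311) and pair differences of 0.56 and 0.22. Without KO replicate 1 the log2 fold change was 0.20. It was 0.58 without KO replicate 2, a fit with 1 KO library whose p-values again hold no KO spread. In this last setting 5 members were called, Themis and Cd3g higher and Lat, Cd3e and Lck lower, where 32.3% of all tested genes were called.

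**Figure D2:**
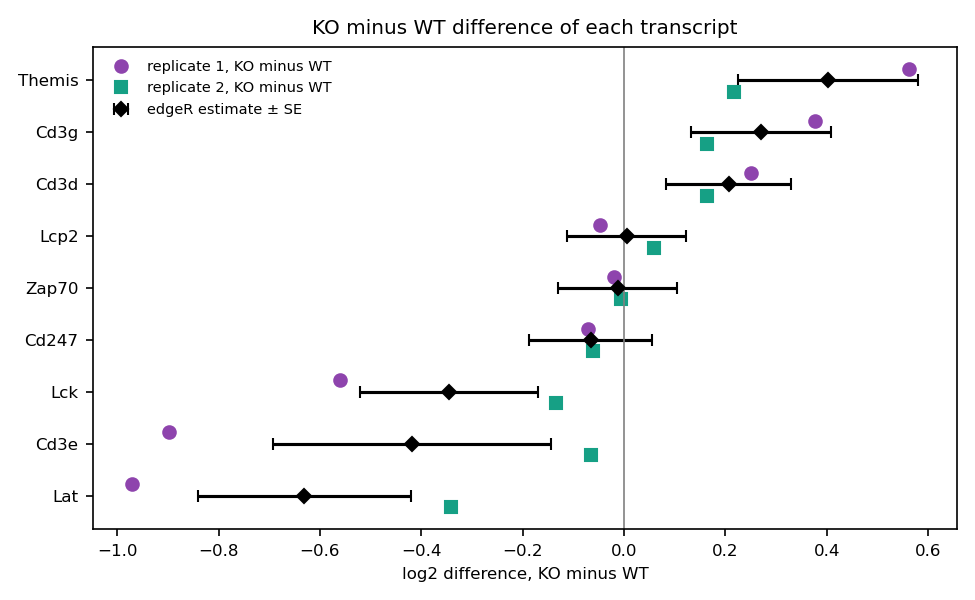
Log2 difference, KO minus WT, of each gene: diamonds with bars are the edgeR estimate ± SE, circles the replicate 1 (female) pair and squares the replicate 2 (male) pair. The replicate 1 pair lies farther from 0 than the replicate 2 pair for 8 of 9 genes, for Lat at -0.97 against -0.34.

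For 8 of 9 members the difference was larger between the female libraries, as for 73.3% of all tested genes. Both pairs had the same sign for 8 of the 9, 3 higher and 5 lower in KO, and opposite signs for Lcp2. The 5 include Zap70, at only -0.019 and -0.0062. Of all 15070 tested genes, 5345 were higher in both pairs, 5533 lower in both and 4187 opposite. The KO replicates stood farther apart than the WT replicates over all tested genes too, with a median gap of 0.29 on the log2 scale against 0.13, and over the members the medians were 0.12 and 0.062. The part of the makeup of KO replicate 1 in these differences was not tested.

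By transcript length, Lck was the most abundant member in both genotypes. In TPM, a level per transcript length computed from the counts and the deposited gene lengths, it averaged 1852 ± 392.1 in KO and 2559 ± 200 in WT (SD, n = 2 each). The order in WT was Lck, Lat, Cd3d, Cd3g, Cd3e, Zap70, Cd247, Lcp2 and Themis, and the ranges of neighbours were apart except those of Cd247 and Lcp2. In KO the order was Lck, Cd3d, Lat, Cd3g, Cd3e, Zap70, Themis, Lcp2 and Cd247, and only Lck against Cd3d and Cd3g against Cd3e had ranges that did not overlap. Lat averaged 871 ± 303 TPM in KO and 1458 ± 53.1 TPM in WT, and stood behind Cd3d in KO but ahead of it in WT. Themis averaged 296 ± 29.3 TPM in KO and 247 ± 2.97 TPM in WT, and it was last in WT but ahead of Lcp2 and Cd247 in KO. The gene lengths hold every annotated exon, and the long Themis and Cd247 models and the uncounted overlap in Cd247 lower such levels.

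**Figure D3:**
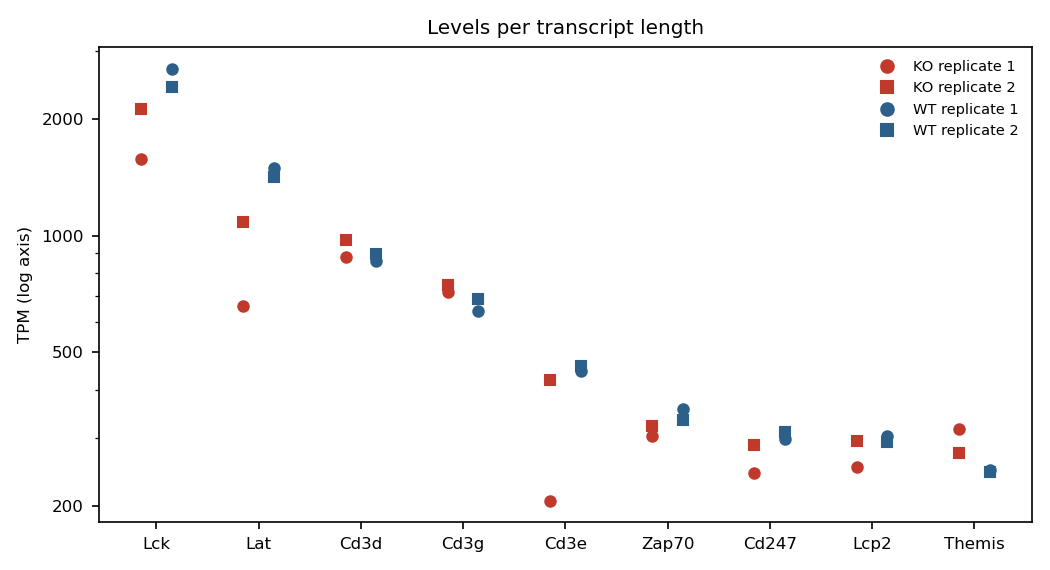
TPM of each gene on a log axis, in the order of the WT mean; red symbols (left in each column) are KO libraries and blue symbols (right) WT libraries. Lat and Lck lie lower in KO, Themis lies higher, and Cd3e in KO replicate 1 (207 TPM) lies under the other 3 libraries (425 to 460 TPM).

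Ratios of TPM values within a library compare subunits independently of scaling between libraries. Cd3e to Cd3g was 0.289 and 0.571 in KO against 0.699 and 0.669 in WT, a log2 difference of -0.75, which was -0.26 without KO replicate 1 and -1.24 without KO replicate 2. Cd3d to Cd3g differed least, at 1.23 and 1.31 in KO and 1.34 and 1.31 in WT. Cd247 to Cd3g was 0.342 and 0.388 in KO against 0.466 and 0.454 in WT, a log2 difference of -0.34.

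Lck exceeded Zap70 in every library, and Zap70 to Lck was 0.193 and 0.151 in KO against 0.132 and 0.138 in WT. Lat to Lcp2, the pair of adaptors that work as one complex, was 2.60 and 3.67 in KO against 4.92 and 4.84 in WT, a log2 difference of -0.66 that was -0.41 without KO replicate 1. Themis to Lat was 0.482 and 0.254 in KO against 0.166 and 0.172 in WT, a log2 difference of 1.05 that was 0.58 without KO replicate 1 and 1.51 without KO replicate 2. The KO and WT ratios did not overlap for any of these 6 pairs, though for Cd3d to Cd3g they nearly touched. Several pairs share Cd3g or Lat, so they are not independent. The CPM of single genes was separated in this way for 56.3% of all tested genes, and the share over other gene pairs was not computed. Pairs were chosen with the genes' values known and are described without a test; an exact permutation of 2 against 2 libraries, two-sided, cannot go below p = 0.333.

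**Figure D4:**
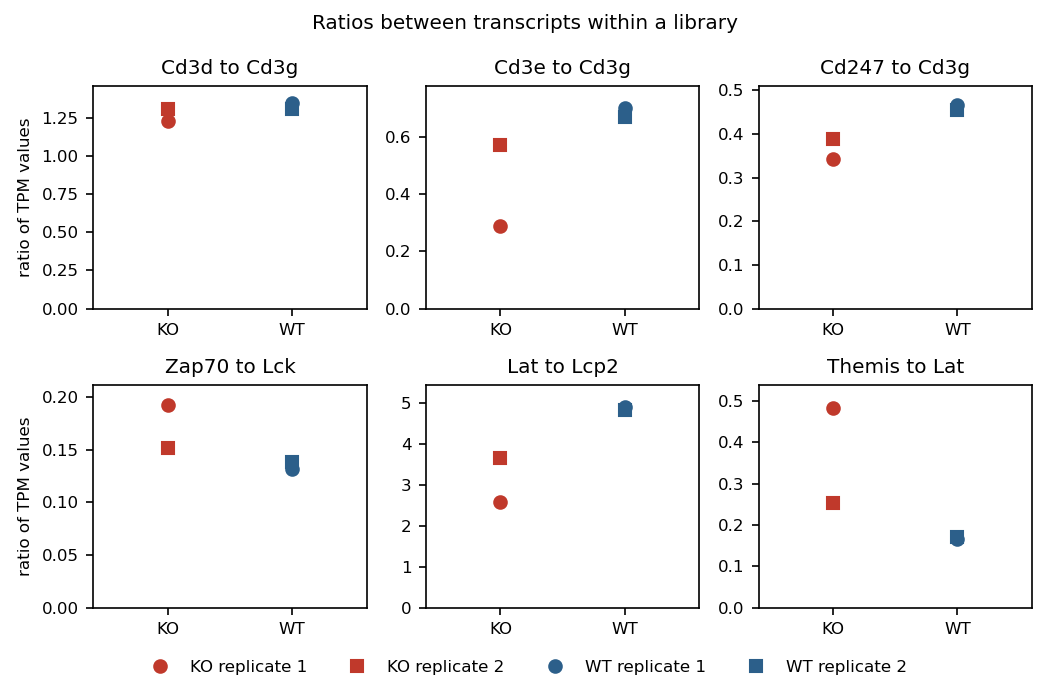
Ratio of the TPM values of 2 genes in each KO (left) and WT (right) library; circles are replicate 1 and squares replicate 2. The WT points lie close together in each panel, while KO replicate 1 lies farthest from them, for Cd3e to Cd3g at 0.289 against 0.699 and 0.669.

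GC content did not order the members simply. The 2 genes with the lowest GC content of the longest transcript, Cd3g (38.5%) and Themis (38.5%), stood higher in KO, and Lat (57.5%) and Lck (54.3%) lower, but Zap70 (59.6%, the highest) hardly differed and Cd3e (44.5%) stood lower. Over all tested genes the median log2 fold change was -0.082 in the fifth of genes with the highest GC content and between 0.00039 and 0.037 in the other four. With an offset for GC content, added after the values were seen, the log2 fold change was -0.55 for Lat (edgeR adjusted p = 0.282), -0.44 for Cd3e (0.435), -0.32 for Lck (0.371), 0.30 for Cd3g (0.330) and 0.43 for Themis (0.304). That offset left 0 members called, without the replicate term (0.00664% of all tested genes called) and with it (3.26%).

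The genes most like the mean profile of the 9 members were Dmac1, Rnf166, Shc1, Inpp5b and Miga2, at Euclidean distances of 0.0089 to 0.019 between centred log2 CPM over the 4 libraries, out of 9938 genes with a mean of at least 5 CPM. That mean profile was nearly flat, from -0.10 in KO replicate 1 to 0.052 in WT replicate 1, and 4 libraries give little power to tell profiles apart.

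Around these components, 68 of 69 listed genes of the receptor pathway were tested, and edgeR called 0 of them. At an unadjusted p under 0.05, 4 of these were higher in KO and 3 lower, where 16.8% of all tested genes passed it, so the 7 of 68 do not exceed the background. Limma-voom called 0, and DESeq2 called Cd28 higher and Cd27 lower, where it called 2.97% of all tested genes. The KO libraries lay above both WT libraries for 23 genes and below for 24, against 27.9% above and 28.4% below over all tested genes, and the median log2 fold change was 0.062 against -0.0026. Named after their values were seen, the 4 were the costimulator Cd28 (0.58), the receptor phosphatase Ptprj (0.58), the calcium release channel Itpr2 (0.69) and the calcium entry channel Orai1 (0.62). The 3 were the costimulator Cd27 (-0.61), the phosphatase Ptpn6 (-0.34), which binds Themis, and the adaptor Lax1 (-0.29). Cd28 had 543 and 416 CPM in KO against 316 and 327 CPM in WT (edgeR adjusted p = 0.267). Cd27 had 308 and 402 CPM in KO against 566 and 515 CPM in WT (edgeR adjusted p = 0.267).

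By role, the shares over all tested genes against which each count is read are those above, 27.9% with both KO libraries above both WT libraries and 28.4% below. Of the 4 genes of the receptor's constant segments and the pre-T alpha chain, 0 lay above and 2 below, Trbc1 and Trac, with Trac named after its values were seen. Trac, the alpha constant segment, had 291 and 330 CPM in KO against 350 and 373 CPM in WT (-0.22, edgeR adjusted p = 0.398). The 2 most highly expressed genes of each list follow. Trbc2 had 1782 and 1831 CPM in KO against 1898 and 1634 CPM in WT, and Trbc1 had 923 and 1214 CPM against 1271 and 1297 CPM (log2 fold changes of 0.032 and -0.26). Reads shared by these near-identical segments were not counted, so both are uncertain. Of the 8 coreceptors and costimulators 4 lay above and 2 below. Cd8a, the coreceptor chain that carries Lck, had 2762 and 3368 CPM in KO against 3424 and 3507 CPM in WT (-0.18), and Cd4 had 2066 and 1896 CPM against 1814 and 1887 CPM (0.098).

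Of the 11 regulators of Lck and Zap70 activity 2 lay above and 4 below, against 27.9% and 28.4% of all tested genes. Ptprc, which encodes CD45, the phosphatase that keeps Lck ready, had a log2 fold change of -0.058, and Pag1, the membrane anchor of the inhibitory kinase Csk, one of 0.31. Of the 15 adaptors 4 lay above and 6 below, and Grap2 (Gads, the link between Lat and Lcp2) and Fyb had log2 fold changes of 0.011 and 0.13. Grap2 had 835 and 761 CPM in KO against 819 and 764 CPM in WT.

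Of the 20 effector enzymes 8 lay above and 6 below, against 27.9% and 28.4% of all tested genes. Dgkz, which removes the second messenger diacylglycerol, had 678 and 823 CPM in KO against 1012 and 903 CPM in WT (-0.35), and Rasgrp1, which that messenger activates, had 847 and 807 CPM against 694 and 716 CPM (0.23). Among 10 tested genes of receptor degradation and restraint 5 lay above and 4 below, with Cbl, a ubiquitin ligase, at 0.040 and Sla, an adaptor that lowers receptor levels in DP cells, at 0.20. The edgeR adjusted p of the 12 genes named by this rule ran from 0.327 to 0.973.

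**Figure D5:**
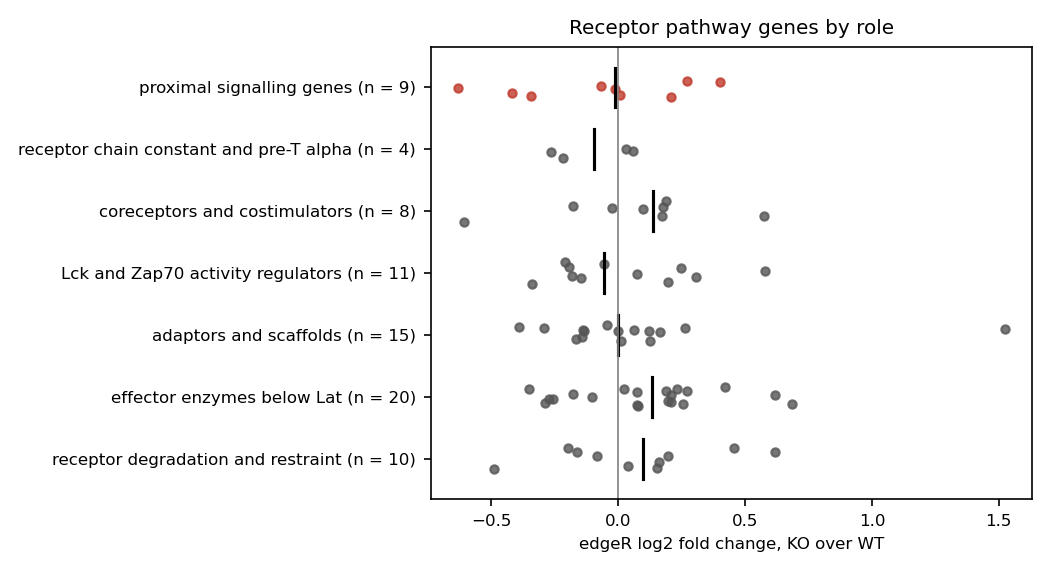
edgeR log2 fold change, KO over WT, of each tested gene by role (points; vertical spread within a row carries no value), with the median as a bar. The 9 proximal components run from -0.63 (Lat) to 0.40 (Themis) around a median of -0.013, and the rightmost adaptor, Themis2 at 1.52, was under 1 CPM in every library.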

How the data were processed

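Poly(A)-selected RNA of sorted DP thymocytes was sequenced in 2 KO and 2 WT libraries. The deposited table holds raw fragment counts per gene, made per the file headers with featureCounts 1.6.3 on exons of Ensembl 98 (GRCm38), paired, without strand, and with no option for multi-mapped or overlapping fragments; the submitters' processing notes list Trim Galore 0.5.0, FastQC, HISAT2, DESeq2 and a later featureCounts (1.6.4). Symbols came from GENCODE M21 (55154 of 56239 IDs), and promoters from RefSeq (9 of 9 members).

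Counts were filtered with filterByExpr (15070 genes) and scaled by TMM (factors 0.919 to 1.04). They were tested with edgeR 4.0.16 quasi-likelihood in R 4.3.3, KO minus WT, with Benjamini-Hochberg adjustment at 0.05. The fit was also run on simulated counts. These held no replicate effect and used dispersions from the fit with the replicate term, so they may not mirror these libraries. Pair differences use log2 CPM with a prior count of 2. Alternatives used DESeq2 1.42.0, limma 3.58.1 voom, other scalings, no filter, robust dispersion, a replicate term, left-out libraries and an added GC offset.

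The members, lists and tests were chosen with earlier results of these data known. The result of a further marker list is not reported here. Named genes are the 9 members, the 5 with the most similar profile, and of each pathway list the called genes or else the 2 with the highest CPM. Genes of the pathway named for an unadjusted p, a DESeq2 call or their place in a plot, and Trac, were chosen after their values were seen. Replicates differed by more than sampling noise (chi-square per degree of freedom 57.2 in KO, 12.5 in WT). Each p-value reflects only how these libraries varied, which may be partly technical. Counting errors cover counting alone, since PCR copies are not independent molecules.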

Additional observations from a re-analysis of the deposited data

Results flagged for a closer look

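Among the 9 members and the 12 pathway genes named by rule, 6 genes differed in direction between the female and the male pair. Each pair is made of 1 KO and 1 WT library, so these differences were not tested. Opposite directions were common, with 4187 of all 15070 tested genes showing them. For Lcp2 the log2 difference, KO minus WT, was -0.048 between the female libraries and 0.059 between the male ones. Trbc2 had -0.091 and 0.16, Ptprc -0.16 and 0.052, Grap2 0.027 and -0.0060, Fyb 0.25 and -0.00032, and Cbl 0.12 and -0.060.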

How the results depend on the processing

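The directions of 7 members (all but Zap70 and Lcp2) held under all 14 alternatives. Zap70 turned to 0.11 with the GC offset, with or without the replicate block, and ran from -0.063 to 0.042 with 1 library left out. Lcp2 turned to -0.074 with library totals alone and to -0.012 with the GC offset, with or without the block, and ran from -0.023 to 0.038 with 1 library left out. Calls over all genes numbered 1 in the planned test (Gm33707), 448 with DESeq2 and 1465 with no filter on low counts; calls among the members were 0, 0 and 1 (Lat), and among the pathway genes 0, 2 and 5. With 1 library left out, when a lone library is assumed to vary like the other group, these 3 counts ran from 1 to 5148, from 0 to 5 and from 0 to 32. The causes were not tested.

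With the replicate number as a block, 483 genes were called (3.21% of those tested), and 492 with the GC offset as well, with 0 members and 0 pathway genes in both; the blocked value of Lat was -0.66 on the log2 scale (adjusted p = 0.119 by edgeR) and that of Cd3e -0.48 (0.218). Same-numbered libraries deviated together (r = 0.47 across genes, which are not replicates) and share a sex, but the labels do not pair them. Counting error was at most 1.33% for these abundant transcripts, so precision was set by the spread between libraries, 2 per genotype.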
